A study of Mus musculus with 3 samples.

Results

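CD4 T cells of the infarcted mouse heart were chosen by their own transcripts, that is by the measured molecules of a few genes in each cell of a single-cell data set. A cell was kept if it had at least 200 detected genes, at least 2 molecules of Cd3e, Cd3d and Cd3g together, at least 1 molecule of Cd4, no Cd8a or Cd8b1, no Trdc, no Cd79a, and C1qa, C1qb and C1qc together below 0.1% of its molecules. By this rule 175 of 25762 cells were CD4 T cells, which is 0.683% of the 25640 cells with enough genes (95% Clopper-Pearson interval 0.585% to 0.791%). Foxp3, the transcription factor that defines regulatory T cells, had at least 1 molecule in 18 of the 175.

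The study took CD45-positive leukocytes from hearts after permanent ligation of a coronary artery, at time points that the labels do not list, and read them on the BD Rhapsody platform in 3 multiplexed libraries. Each library pooled mice with both F7 alleles floxed and CX3CR1Cre (F7fl/fl CX3CR1Cre) and F7fl/fl WT mice. In the Cre mice the recombinase stands under the Cx3cr1 gene, which is used by macrophages, monocytes and some lymphocytes, and every mouse carried the floxed alleles. Cells carried a sample tag for each biological replicate. Library 1 used 7 tags, library 2 used 5 and library 3 used 6. No genotype or time is tied to a single tag in what was used here, so genotypes and times were not compared.

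CD4 T cells recognise peptides that other cells present on MHC class II, and steer the response through cytokines and surface ligands. In the injured heart they are known to help wound healing, while regulatory T cells restrain inflammation and make tissue repair factors such as amphiregulin (Areg). Naive cells that recirculate through lymph nodes carry Ccr7 and Tcf7, and the effector types Th1, Th2 and Th17 are told apart by the cytokines interferon-gamma, interleukins 4, 5 and 13, and interleukin 17.

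Library 1 held 61 of the CD4 T cells, library 2 held 39 and library 3 held 75, with median depths of 8225, 6207 and 5819 molecules. All 18 tags together had 532357445 molecules, 695 to 2494 cells and 10136595 to 62344127 molecules each. The libraries differed in bead type, pipeline release and counting of intronic reads, per the file headers. Cell index numbers were shared by 4 cells between libraries 1 and 2 and by 3 between libraries 1 and 3, and none of these was a CD4 T cell in both libraries.

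The rule moves with depth and with myeloid RNA. Of 1225 cells with enough Cd3, 479 had Cd4, 386 of these had no Cd8, 357 also had no Trdc, 203 were below the C1q limit, and 175 lacked Cd79a. With no test, just inside the limits, 10 members had exactly 2 Cd3 molecules and 48 had exactly 1 Cd4 molecule. Just outside, 8 cells had 1 Cd3 molecule and 94 had no Cd4, at median depths of 4757 and 7291.5 molecules. A further 120 cells fulfilled everything except the C1q limit, with a median of 0.527% C1q and 20191 molecules.

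Genes that the rule did not use marked these cells as T cells, though not as CD4 T cells in particular. The B cell, NK cell and macrophage gates asked for no Cd3 molecule, so low shares there were largely fixed beforehand. Trac, the constant region of the T cell receptor alpha chain, was found in 168 of 175 CD4 T cells, against 182 of 192 CD8 T cells gated in mirror image, 8 of 377 B cells and 201 of 14485 C1q-rich macrophages. The median depths of these sets were 7015, 10781.5, 6820 and 20430 molecules. Variable segments of the beta chain were found in 79 CD4 T cells, against 98 CD8 T cells and 0 of 255 NK cells, which allows up to 1.18% of cells with such a molecule but does not limit cells whose segment was missed. Altogether 18 of the 28 Trbv segments appeared among the CD4 T cells. Trbv3 was the most frequent, in 13 cells, followed by Trbv19 in 11 and Trbv12-2 in 9, and 8 cells had more than 1 segment.

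Many of these cells also carried transcripts of antigen-presenting cells. A set of 10 macrophage markers summed to 4419 CPM (molecules of a gene scaled to the total of the summed cells) in CD4 T cells, against 5088 CPM in CD8 T cells and 25866 CPM in macrophages, and none of the 10 was at 0. In 39 of the 175 CD4 T cells (22.3%, interval 16.4% to 29.2%), macrophage markers or the 4 MHC class II genes H2-Aa, H2-Ab1, H2-Eb1 and Cd74 exceeded 1% of all molecules, a limit chosen after the values were seen. These 39 cells had a median of 15759 molecules, against 6383 in the other 136. Their Trac level was 528 CPM, against 1227 CPM in the other 136, and Flt3, a dendritic cell receptor, stood at 123 CPM in the 39 and 3.33 CPM in the other 136. Their T cell markers (11 genes) summed to 2150 CPM, against 5686 CPM in the other 136. The same limit was passed by 61 of 192 CD8 T cells, by 2 of 18 Foxp3-positive and by 37 of 157 Foxp3-negative CD4 T cells. The part of these transcripts in the results below was not tested beyond the values without those cells.

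**Figure D1:**
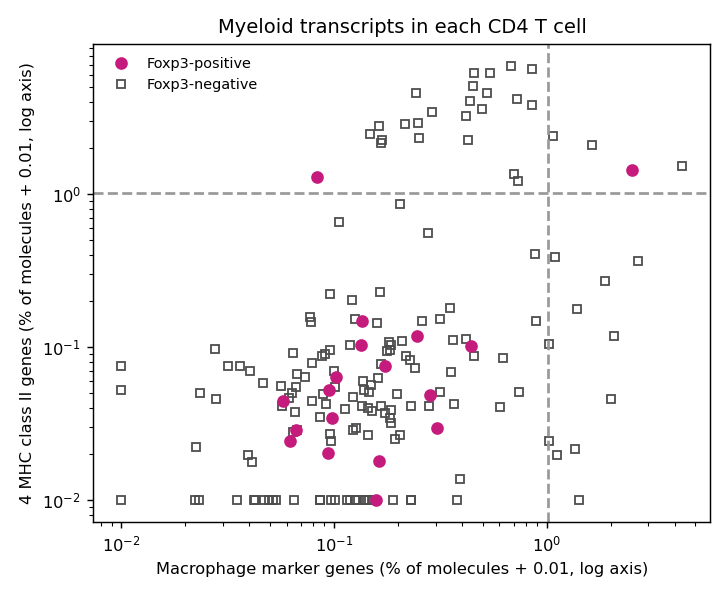
Each point is 1 of the 175 CD4 T cells. The horizontal axis shows 10 macrophage markers and the vertical axis 4 MHC class II genes, each as a percentage of the cell's molecules plus 0.01 on a log scale. Dashed lines mark 1%. Filled circles are the 18 Foxp3-positive cells, of which 2 lie beyond a line, and open squares are the 157 Foxp3-negative cells, of which 37 do.

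CD4 T cells were found in every one of the 18 tags, at 0.0533% at the lowest, 0.601% at the median and 2.17% at the highest of the tag's cells. The median over tags was 0.281% in library 1, 0.701% in library 2 and 1.69% in library 3, so shares were lowest in library 1 and highest in library 3. The 2 highest tags, both in library 3, had 20 of 921 and 18 of 983 cells. The 2 lowest, 1 in library 1 and 1 in library 3, had 1 CD4 T cell each, of 1877 and 962 cells. Libraries 2 and 3 shared the bead type and pipeline release, and library 1 differed from both. The mix of mice in each library is not known here, so a difference between libraries cannot be told apart from it.

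CD4 T cells made up 44.9% of CD4 and CD8 T cells at the median tag, with 7.14% at the lowest and 70.6% at the highest. By library the medians were 40% in library 1, 44.4% in library 2 and 63.4% in library 3. When every cell was thinned to 2000 molecules before gating, 69 CD4 and 107 CD8 T cells were left, against 175 CD4 and 192 CD8 T cells before thinning. The CD4 gate thus lost the larger part of its cells with depth.

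**Figure D2:**
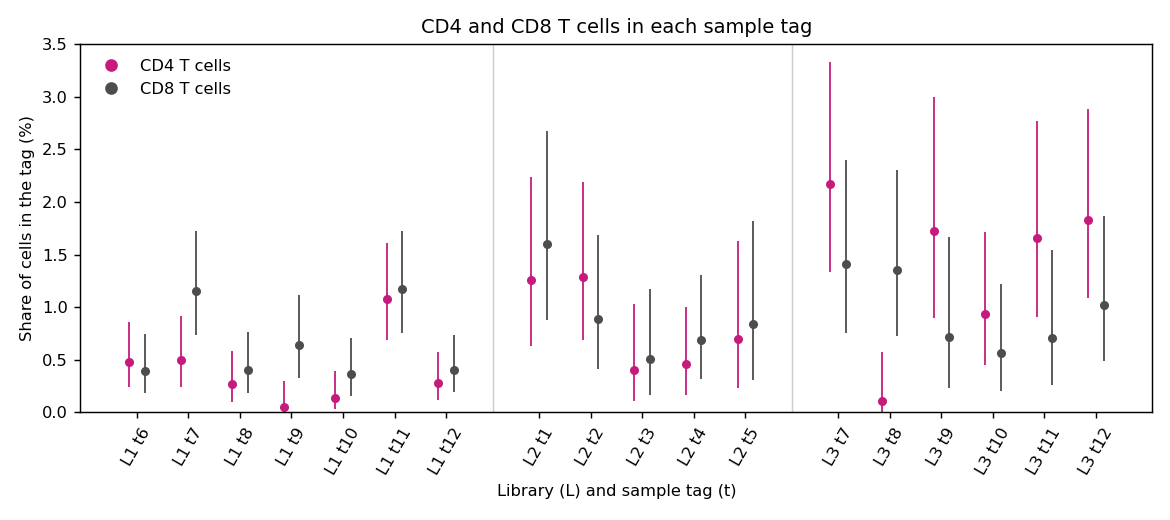
The vertical axis shows the percentage of a tag's cells that were CD4 (left, magenta) or CD8 (right, grey) T cells, and the horizontal axis the 18 tags by library. Bars are 95% Clopper-Pearson intervals, which cover counting error only. CD4 shares reach 2.17% in library 3, while tag 8 of that library holds 0.104% CD4 and 1.35% CD8 T cells.

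CD4 and CD8 T cells of the same tag differed in helper and cytotoxic genes. Counts were summed per tag and gate in the 14 tags with at least 5 cells of both (166 CD4 and 154 CD8 T cells), leaving out the genes used for gating. The edgeR quasi-likelihood test, with the tag as a block and Benjamini-Hochberg adjustment, called 40 of 1890 genes, 16 higher and 24 lower in CD4 T cells. These are 2.12%, 0.847% and 1.27% of the genes tested. The count was smaller without library 1 (15 genes), library 2 (10) or library 3 (8), and was 46 of 1047 genes without the cells rich in myeloid transcripts (4.39%), with 23 higher (2.2%) and 23 lower (2.2%). Of the 20 genes with the largest differences, 4 were called without each library in turn, among them Tmem64, Ctsw and Ugcg. The other 16 lost their call, or their place among the genes tested, without at least 1 library, with no change of sign. Their choice had already asked for the same sign in at least 75% of tags.

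Among the genes named from that fit, the largest difference upward was in Tmem64, which encodes a transmembrane protein (GRCm38, chr4:15265831-15286753, plus strand, GENCODE M21). Its level in CD4 T cells was 97.8 CPM at the lowest tag, 238 at the median and 827 at the highest, against 0, 29.4 and 106 CPM in CD8 T cells. It was higher in CD4 T cells in 14 of 14 tags, by 2.97 ± 0.34 on the log2 scale (SE; edgeR adjusted p = 1.73e-05). Without the cells rich in myeloid transcripts it stood at 286 CPM in CD4 and 44 CPM in CD8 T cells and fell under the filter. Gamma-delta T cells held 519 CPM.

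Ctla4 and Icos, receptors of the CD28 family, were higher in the CD4 gate. Cd28 itself, the costimulatory receptor, was not called (log2 0.53 ± 0.18, edgeR adjusted p = 0.18). Ctla4, an inhibitory receptor for CD80 and CD86, had 103, 286 and 1055 CPM (lowest, median and highest tag) in CD4 T cells, against 0, 92.4 and 161 CPM in CD8 T cells. It was higher in all 14 tags, by 2.18 ± 0.41 on the log2 scale. Icos, the inducible costimulator, had 150, 565 and 1368 CPM in CD4 T cells, against 18, 169 and 1115 CPM in CD8 T cells, with overlap between the sets. Its log2 difference was 1.78 ± 0.34, with 12 of 14 tags higher. The Foxp3-negative CD4 T cells alone held 240 CPM of Ctla4 and 605 CPM of Icos, against 65.8 CPM of Ctla4 and 170 CPM of Icos in all CD8 T cells.

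Transcription factors Maf and Rora, which act in several helper lineages, were higher by 2.46 ± 0.58 and 1.71 ± 0.42 on the log2 scale. Maf had 59.1, 301 and 2008 CPM in CD4 T cells, against 0, 34.9 and 376 CPM in CD8 T cells. Macrophages themselves carry Maf at 560 CPM, while the 39 CD4 T cells rich in myeloid transcripts held 107 CPM and the other 136 held 469 CPM. Hif1a, the oxygen-regulated factor, was higher by 0.72 ± 0.19. The inhibitory coreceptors Cd5 and Cd6 were higher by 1.17 ± 0.29 and 0.87 ± 0.22. Dusp10, Samsn1, Rabgap1l and Dgat1 completed the 10 largest differences upward, between 1.05 and 1.30 on the log2 scale.

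Cytotoxic genes were lower in CD4 T cells. Of 19 genes on the cytotoxic list 8 passed the filter on low counts, and 6 of them were lower and none higher. The median log2 difference of the 8 was -1.63, against -0.0068 over all genes tested. Gzmb, the protease granzyme B, had 0, 32.9 and 435 CPM (lowest, median and highest tag) in CD4 T cells, against 59.3, 492 and 1602 CPM in CD8 T cells. It was lower in CD4 T cells in 14 of 14 tags, with a log2 difference of -3.15 ± 0.50.

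The chemokine Ccl5, made by effector lymphocytes, had 39.2, 578 and 1086 CPM in CD4 T cells, against 756, 2352 and 5372 CPM in CD8 T cells, a log2 difference of -2.39 ± 0.42. Nkg7, a protein of cytotoxic granules, and Ctsw, a protease of killer cells, were at -1.97 ± 0.31 and -1.70 ± 0.28. The killer-cell lectin receptors Klrk1 and Klrd1 were at -1.56 ± 0.26 and -1.28 ± 0.32. Outside the list, Ly6c2, a surface antigen of memory CD8 T cells and monocytes, was at -2.83 ± 0.42, though reads shared with its near copy Ly6c1 leave its count uncertain. Dusp2 and Ugcg were at -1.60 ± 0.28 and -1.37 ± 0.23.

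**Figure D3:**
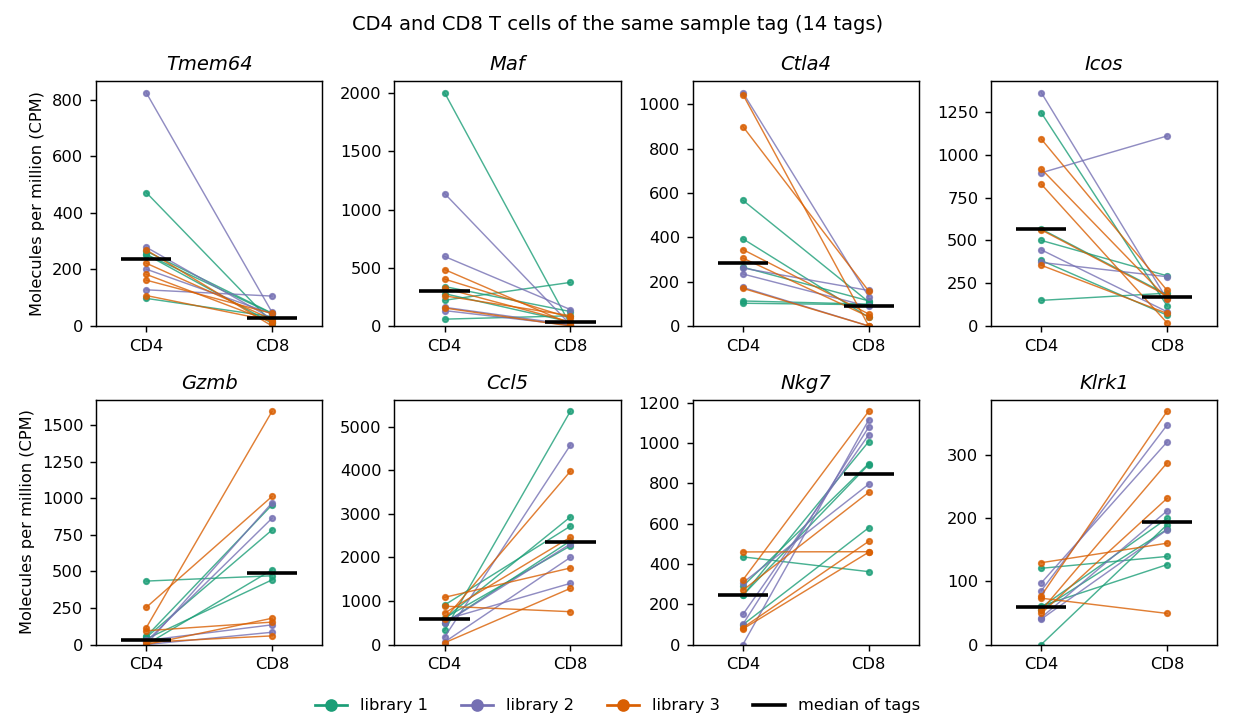
Levels of 8 genes in summed CD4 (left) and CD8 (right) T cells of the same tag, in CPM on linear axes that start at 0. Each line joins the 2 gates of 1 of 14 tags, coloured by library, and black bars are medians over tags. Tmem64 and Ctla4 fall along every line, and Gzmb rises along every line.

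Several helper genes were too scarce to pass the filter on low counts and were called only in the fit with no filter, where 108 of 16460 genes (0.656%) were called, 56 higher (0.34%) and 52 lower (0.316%). Of the 11 genes on the CD4 lineage list, all were tested there, 8 were higher and none lower. Cd40lg, the ligand through which helper cells activate B cells and macrophages, had 140 molecules in 66 of 175 CD4 T cells, against 2 molecules in 2 of 192 CD8 T cells. Its log2 difference was 5.18 ± 0.61. Tnfrsf4, the costimulatory receptor OX40, had 288 molecules in 66 CD4 T cells, against 5 molecules in 3 CD8 T cells (log2 5.01 ± 0.44). After thinning to 2000 molecules, Cd40lg was left in 31 of 174 CD4 and 0 of 190 CD8 T cells, and Tnfrsf4 in 31 CD4 and 0 CD8 T cells.

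Tnfsf11, the ligand RANKL, and Tnfsf8, the ligand of CD30, were higher by 3.23 ± 0.52 and 1.98 ± 0.39 in that fit. The chemokine receptors Ccr8 and Ccr4 were higher by 4.86 ± 0.73 and 3.86 ± 0.72. The chemokine receptor list of 16 genes held no other gene higher in CD4 T cells in either fit. Of the 20 core regulatory genes 19 were tested there, and 7 were higher and none lower. They were Il2ra (log2 2.41 ± 0.33), Ikzf2 (1.94 ± 0.31), Izumo1r (1.89 ± 0.44) and Tnfrsf18 (1.61 ± 0.25), with Ctla4, Icos and Tnfrsf4. The CD4 gate holds the Foxp3-positive cells, and the 157 Foxp3-negative cells held 53.8 CPM of Il2ra, against 17.9 CPM in CD8 T cells. Eomes, a transcription factor of cytotoxic cells, was lower by this fit at -3.95 ± 0.39, and Gzmk at -2.89 ± 0.39.

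The naive and recirculating list gave no call between the gates, with 10 of 12 genes tested and a median log2 difference of -0.0048. Tcf7 had a median of 517 CPM in CD4 and 376 CPM in CD8 T cells, with edgeR adjusted p = 0.42. None of 7 cell cycle genes, 13 genes of activated and memory cells or 3 interferon response genes tested was called. Mki67, a proliferation marker, was found in 43 of 175 CD4 and 50 of 192 CD8 T cells, and after thinning in 24 of 174 CD4 and 33 of 190 CD8 T cells.

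Transcripts of helper types were unevenly spread over the CD4 T cells. At least 1 molecule of Tbx21, Ifng or Cxcr3, which mark Th1 cells, was found in 74 of 175 CD4 T cells (42.3%), against 123 of 192 CD8 T cells, which use the same genes. Ifng itself had 141 molecules in 37 CD4 T cells. The Th2 cytokines Il4, Il5 and Il13 were found in 5 CD4 T cells, with 13 molecules of Il13 in a single cell.

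Interleukin 17 came from few cells. Il17a had 178 molecules in 14 CD4 T cells, against 22 molecules in 1 CD8 T cell and 138 molecules in 23 of 75 gamma-delta T cells. Il17f, another cytokine of this family, had 49 molecules in 6 CD4 T cells, against 0 CD8 T cells and 29 molecules in 4 gamma-delta T cells. Trdc, which the gate required to be absent, can be missed in a shallow gamma-delta T cell. The 5 other gamma-delta markers summed to 25.1 CPM in CD4 T cells, 41.3 CPM in CD8 T cells and 0 in Foxp3-positive cells, and Trdv4 was at 0 in all of these.

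Il21, the cytokine of follicular helper cells, was found in 2 cells and their receptor Cxcr5 in 8, against 167 of 377 B cells. Il2, the growth factor that activated CD4 T cells make, was found in 18 cells. This share is 10.3%, against 7.04% of macrophages at 20430 molecules and 4.77% of B cells at 6820 molecules. Ccr7, the naive marker, was found in 51 of 175 CD4 and 82 of 192 CD8 T cells.

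**Figure D4:**
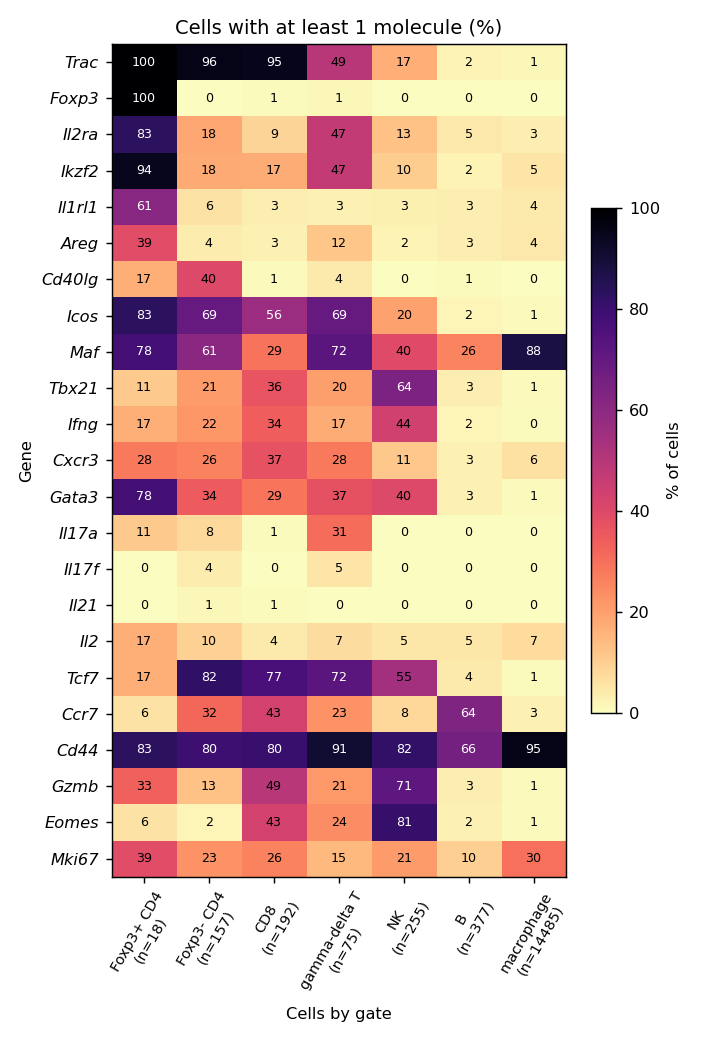
Numbers and colour give the percentage of cells with at least 1 molecule of each gene, unthinned, for the Foxp3-positive and Foxp3-negative CD4 T cells and 5 other gates. Foxp3 is fixed by the split of the CD4 gate. Cd40lg reaches 40% in Foxp3-negative CD4 T cells and 1% in CD8 T cells, and Tcf7 is found in 17% of Foxp3-positive and 82% of Foxp3-negative cells.

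Foxp3-positive cells made up 10.3% of the CD4 T cells (18 of 175, interval 6.21% to 15.8%). Foxp3 lies on the mouse X chromosome (GRCm38, chrX:7573644-7595245, plus strand, GENCODE M21). The cells came from 9 of the 18 tags, at most 3 from any tag, with 4 in library 1, 5 in library 2 and 9 in library 3. Foxp3 was found in 1 of 192 CD8 T cells, 1 of 75 gamma-delta T cells, 0 of 255 NK cells, 0 of 377 B cells and 40 of 14485 macrophages. The 18 cells held 208 Foxp3 molecules, between 1 and 27 each, and 1 cell had a single molecule. Their median depth was 9575 molecules, against 6935 in the 157 Foxp3-negative cells, and in library 3 it was 23214 in Foxp3-positive and 5294.5 in Foxp3-negative cells. A cell without a Foxp3 molecule may still express the gene, since 14 of the 18 kept one after thinning to 2000 molecules.

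Single Foxp3-positive cells carried other regulatory genes together. At least 2 of Il2ra, Ctla4, Ikzf2 and Tnfrsf18 were found in 17 of the 18, against 67 of 157 Foxp3-negative cells. Of 20 core regulatory genes they had a median of 12, between 3 and 15, against a median of 5, between 0 and 13, in Foxp3-negative cells. These counts were made without thinning, and the Foxp3-positive cells were deeper (median 9575 against 6935 molecules). The part of depth in them was not tested. The cell with 27 Foxp3 molecules, in library 3, had 11 of Il2ra, 9 of Ctla4, 3 of Ikzf2 and 17 of Tnfrsf18. The cell with only 3 core genes, in library 1, had 3 molecules of Foxp3 and 10 of Ctla4 at a depth of 5061 molecules.

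Foxp3-positive and Foxp3-negative cells were compared as sums per library, with the library as a block, because only 2 tags had 3 cells of each. The 9 tags without a Foxp3-positive cell gave only Foxp3-negative cells, so differences between tags are not separated in this fit. The edgeR quasi-likelihood test with Benjamini-Hochberg adjustment called 57 of 4351 genes, 17 higher and 40 lower in Foxp3-positive cells (1.31%, 0.391% and 0.919%). In library 2, 1 of the 5 Foxp3-positive cells held 41007 molecules, while the others held 2721 to 5155, so that cell weighs most in the library's sum. The 18 cells limit this fit. It called 322 genes without library 1, 37 without library 2, 5 without library 3, and 1 of 3083 genes (0.0324%), Ly6c2, without the cells rich in myeloid transcripts. In that last fit 232 genes had an unadjusted p under 0.05. Of 17 genes named by size and still tested without library 3, which holds 9 of the 18 cells, Tnfrsf9 was called, and none of the 17 changed sign. The rule that named them asked for the same sign in every library, so their sign could hardly change.

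Among the 20 core regulatory genes 15 passed the filter on low counts, and 7 were higher and none lower, with a median log2 difference of 1.91 against -0.09 over all genes tested. Without the filter 6 of 19 were higher. None of 13 was called without the cells rich in myeloid transcripts. Il2ra, the high-affinity chain of the interleukin 2 receptor, had 618, 513 and 854 CPM in Foxp3-positive cells of libraries 1, 2 and 3, against 33.9, 64.1 and 74.6 CPM in Foxp3-negative cells. Single cells gave most of this in libraries 1 and 2. The Foxp3-positive cells of library 1 held 17, 0, 1 and 2 molecules, and those of library 2 held 23, 0, 5, 0 and 1. The log2 difference of Il2ra was 3.46 ± 0.47 (SE; edgeR adjusted p = 0.00016). Without the myeloid-rich cells it was tested but not called, with a log2 difference of 2.9999, and the Foxp3-negative cells held 73.4 CPM.

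Ikzf2, which encodes Helios, a transcription factor of regulatory cells, had 1081, 389 and 543 CPM in Foxp3-positive cells, against 45.1, 67.5 and 46.6 CPM in Foxp3-negative cells. The Foxp3-positive cells of library 1 held 31, 0, 2 and 2 molecules, so 1 cell gave most of that value. The log2 difference was 3.48 ± 0.50, and 3.31 without the myeloid-rich cells. Its relative Ikzf4 (Eos) was higher by 4.10 ± 0.81. Ctla4 was present in 18 of 18 cells, with 1266, 619 and 1166 CPM, against 145, 290 and 338 CPM in Foxp3-negative cells, a log2 difference of 1.90 ± 0.43. Without the myeloid-rich cells it was 1.39, and not called.

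Receptors of the tumour necrosis factor family were high in all 3 libraries. Tnfrsf9, the receptor 4-1BB, had 710, 849 and 933 CPM in Foxp3-positive cells, against 7.05, 10.1 and 123 CPM in Foxp3-negative cells, a log2 difference of 4.79 ± 0.65. Tnfrsf18 (GITR) had 401, 672 and 454 CPM, against 97.3, 118 and 131 CPM in Foxp3-negative cells, a log2 difference of 2.02 ± 0.45. Tnfrsf4 had 92.6, 637 and 558 CPM, against 42.3, 132 and 125 CPM in Foxp3-negative cells, a log2 difference of 1.91 ± 0.48. In library 1 its 3 molecules in Foxp3-positive cells came from 1 cell. Without the myeloid-rich cells the log2 differences of these receptors were 4.36, 1.499 and 1.28, none of them called.

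Il1rl1, Klrg1 and Gata3, known from regulatory cells of non-lymphoid tissue, were also higher. Of the 18 genes on that list 14 passed the filter, 3 were higher and none lower, with a median log2 difference of 0.33 against -0.09 over all genes tested. Il1rl1, the receptor ST2 for the alarmin interleukin 33, had 463, 318 and 938 CPM in Foxp3-positive cells, against 16.9, 37.1 and 89.6 CPM in Foxp3-negative cells (log2 3.60 ± 0.50). It was found in 11 of 18 Foxp3-positive and 9 of 157 Foxp3-negative cells. Klrg1, an inhibitory receptor of differentiated cells, had 124, 760 and 445 CPM, against 24, 0 and 13.1 CPM in Foxp3-negative cells (log2 4.77 ± 0.85). In library 2 its 43 molecules all came from tag 1, which held 2 of the 5 Foxp3-positive cells of that library. Gata3, a factor that ST2-bearing regulatory cells share with Th2 cells, had 618, 424 and 198 CPM, against 94.5, 94.5 and 84 CPM in Foxp3-negative cells (log2 1.93 ± 0.47). The markers of type 2 innate lymphoid cells share Gata3, Il1rl1, Areg and Rora with this list. Those 6 markers summed to 1931 CPM in Foxp3-positive and 513 CPM in Foxp3-negative cells. Il13 alone was at 0 in Foxp3-positive cells, so the cytokine Il5 was detected there. The part of these markers in the result was not tested. Without the myeloid-rich cells Il1rl1, Klrg1 and Gata3 were not called (log2 2.90, 4.22 and 1.397).

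Areg had 34 molecules in 7 of 18 Foxp3-positive cells, against 14 molecules in 6 of 157 Foxp3-negative cells, and was too scarce for the filter. After thinning it was left in 2 of 18 Foxp3-positive and 2 of 156 Foxp3-negative cells, which is near the level of single molecules. Penk, the precursor of enkephalin peptides, had 66 molecules in 6 Foxp3-positive cells, against 1 molecule in 157 Foxp3-negative cells. It was called only in the fit with no filter, where 108 of 14780 genes were called (0.731%), 20 higher (0.135%) and 88 lower (0.595%), with a log2 difference of 6.08 ± 1.39. By library its level in Foxp3-positive cells was 0, 17.7 and 320 CPM, and 60 of the 67 Penk molecules of all CD4 T cells came from 1 tag, tag 11 of library 3. Il10 was found in 3 Foxp3-positive and 11 Foxp3-negative cells, against 4083 of 14485 macrophages.

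The promoters of 7 of the 10 genes sought were matched by symbol in the RefSeq table of build GRCm38.p6, among them Il2ra, Tnfrsf18, Tnfrsf9, Tnfrsf4, Il1rl1, Ctla4 and Gata3. The windows run from 250 bases before to 50 after 1 start listed there for each gene. For Ctla4 (chr1:60908775-60909074) and Tnfrsf9 (chr4:150919905-150920204) the window lies inside the GENCODE M21 gene. Those genes begin at chr1:60887000 and chr4:150914562, and the bases around these starts were not searched. They were searched on both strands for TGTTTAC (forkhead), TTCNNNGAA (STAT), TGANTCA (AP-1) and an NF-kB pattern (GGGA, any 4 bases, then CC), which occur in 3.55%, 8.47%, 7.93% and 20.5% of 27025 promoters. The windows of Il2ra and Tnfrsf18 are shown because these receptors were high in Foxp3-positive cells of every library and each holds 1 match, printed in capitals. Il2ra holds the NF-kB letters, chr2:11642542-11642841 on the plus strand, and Tnfrsf18 the STAT letters, chr4:156026072-156026371 on the plus strand. No matches overlapped. Of the other 5 windows Gata3 alone held a match, to the NF-kB letters, and none of the 7 held the forkhead or AP-1 letters.
Il2ra: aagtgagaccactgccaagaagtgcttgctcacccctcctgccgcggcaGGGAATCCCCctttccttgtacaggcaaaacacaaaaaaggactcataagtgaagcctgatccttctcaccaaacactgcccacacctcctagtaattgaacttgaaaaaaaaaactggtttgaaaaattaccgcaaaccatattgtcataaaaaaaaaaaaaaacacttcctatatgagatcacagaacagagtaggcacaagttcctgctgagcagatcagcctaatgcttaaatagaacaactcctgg
Tnfrsf18: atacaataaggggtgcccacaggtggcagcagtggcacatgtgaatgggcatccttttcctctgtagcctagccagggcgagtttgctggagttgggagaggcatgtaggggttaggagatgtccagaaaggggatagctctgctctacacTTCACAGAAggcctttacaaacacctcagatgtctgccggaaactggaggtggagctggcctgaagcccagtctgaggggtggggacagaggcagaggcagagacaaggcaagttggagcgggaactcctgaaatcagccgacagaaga
A match says only that these letters stand in the window.

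Other genes named by size included several outside the lists of regulatory genes used here. Ccr3, a chemokine receptor best known from eosinophils, had 24 molecules in 7 Foxp3-positive cells, against 3 molecules in Foxp3-negative cells (log2 5.47 ± 1.04). Neb, which encodes the muscle filament protein nebulin, had 62 molecules in 8 Foxp3-positive cells, against 17 molecules in 4 Foxp3-negative cells (log2 4.82 ± 0.83), and stood at 0.649 CPM in macrophages. Stx11, a membrane fusion protein of lymphocyte granules, and Tmlhe, an enzyme of carnitine synthesis, were higher by 2.67 ± 0.49 and 3.65 ± 0.87. Igkc, the immunoglobulin kappa constant region, had 62 molecules in 12 of 18 Foxp3-positive cells, against 50 molecules in 33 of 157 Foxp3-negative cells, and was found in 39 of 192 CD8 T cells and 2303 of 14485 macrophages. The 6 B cell markers summed to 233 CPM in Foxp3-positive and 106 CPM in Foxp3-negative cells. The defining markers Ms4a1, Bank1 and Ebf1 were at 0 in Foxp3-positive cells, while the gate itself excluded Cd79a.

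Ccr7 and Igfbp4 of the naive list were lower in Foxp3-positive cells. Of 12 genes on the list 11 passed the filter, 2 were lower and none higher, with a median log2 difference of -1.35. None of 11 tested without the cells rich in myeloid transcripts was called. Ccr7, the lymph node homing receptor, had 0, 0 and 19.8 CPM in Foxp3-positive cells of libraries 1, 2 and 3, against 97.3, 152 and 241 CPM in Foxp3-negative cells, a log2 difference of -4.16 ± 0.86. Igfbp4, a binding protein of insulin-like growth factors that naive T cells express, had 0 molecules in Foxp3-positive cells, against 239 in Foxp3-negative cells. With a limit of 3 molecules over the 18 cells it was at least 15.1-fold lower. Tcf7 had 401, 0 and 19.8 CPM, against 515, 490 and 560 CPM in Foxp3-negative cells. It was not called (log2 -3.11 ± 0.88, edgeR adjusted p = 0.16), but it was called in the fit with no filter (log2 -3.40). Library 1 held most of its molecules in Foxp3-positive cells.

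**Figure D5:**
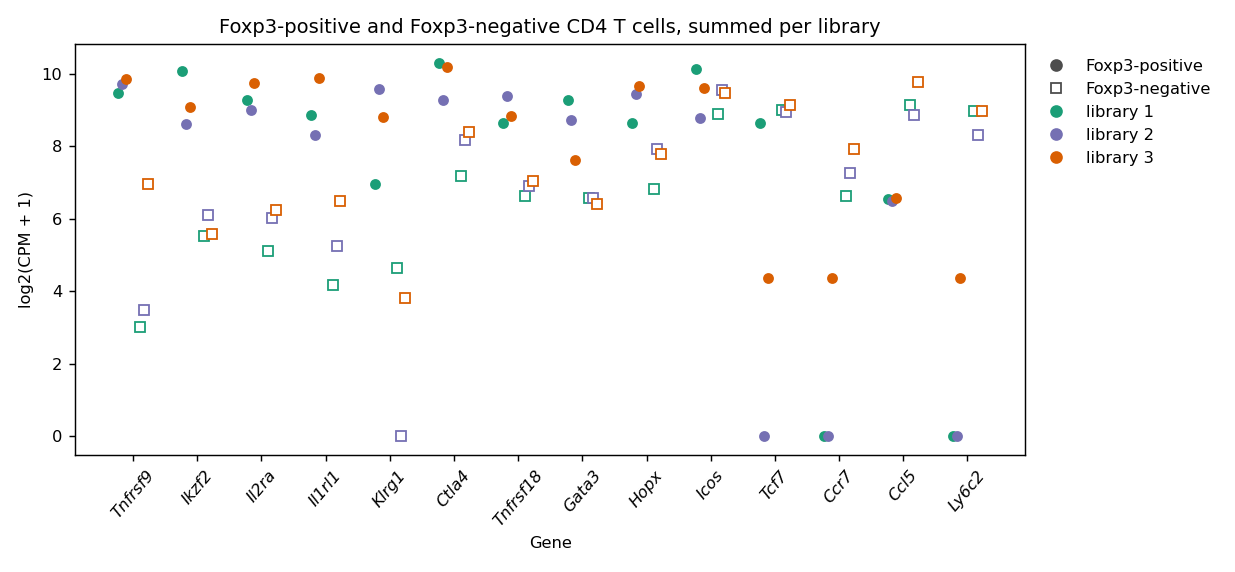
The vertical axis shows log2(CPM + 1) of 14 genes, named on the horizontal axis, in cells summed per library, with Foxp3-positive cells as filled circles (left) and Foxp3-negative cells as open squares (right). Colours mark the 3 libraries. Tnfrsf9, Ikzf2, Il2ra and Il1rl1 lie higher in Foxp3-positive cells in each library, and Icos overlaps between the sets. Ccr7 and Ly6c2 lie at 0 in 2 libraries of Foxp3-positive cells.

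Of 19 cytotoxic genes 11 passed the filter, and Ccl5 and Gzma were lower and none higher. None of 7 tested without the cells rich in myeloid transcripts was called. Ccl5 had 92.6, 88.4 and 93.8 CPM in Foxp3-positive cells, against 566, 465.9 and 879 CPM in Foxp3-negative cells, a log2 difference of -2.91 ± 0.51. Ly6c2 was lower by 5.33 ± 0.71 on the log2 scale, with 4 molecules in Foxp3-positive and 721 in Foxp3-negative cells. Gzma, the protease granzyme A, had 0 molecules, against 131 molecules in 8 Foxp3-negative cells, and was at least 8.26-fold lower with the limit of 3 molecules. Tbc1d4, a regulator of glucose uptake, was lower by 5.82 ± 1.06. Il17a had 2 molecules in 2 Foxp3-positive cells, against 176 molecules in 12 Foxp3-negative cells, and Cd40lg had 4 molecules in Foxp3-positive and 136 in Foxp3-negative cells.

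Il1b, Ptgs2, Clec4e, Pltp and Ifitm3 were also among the 10 genes with the largest differences downward. Il1b, the inflammatory cytokine interleukin 1 beta, had 0, 70.7 and 9.88 CPM in Foxp3-positive cells, against 811, 476 and 575 CPM in Foxp3-negative cells, a log2 difference of -4.71 ± 0.69. Ptgs2, the prostaglandin synthase COX-2, had 0 molecules, against 349 in Foxp3-negative cells. In macrophages these genes stood at 703 and 544 CPM. The Foxp3-negative cells without the myeloid-rich ones still held 305 CPM of Il1b and 186 CPM of Ptgs2. The 10 macrophage markers summed to 1385, 1112 and 4227 CPM in Foxp3-positive cells of the 3 libraries, against 3461, 7309 and 4694 CPM in Foxp3-negative cells. All 10 were detected in both. The 5 neutrophil markers summed to 188 CPM in Foxp3-positive and 472 CPM in Foxp3-negative cells, with Cxcr2 at 0 in Foxp3-positive cells. Of 14 immediate early and stress genes 2 were lower, Egr1 (log2 -3.81 ± 0.78) and Hspa1a (-2.52 ± 0.61), whose reads may be shared with its near copy Hspa1b. None of 13 tested without the myeloid-rich cells was called. The Th17 list gave 2 lower genes of 2 that passed the filter, of 9 in all. They were Tmem176a (-4.18 ± 0.93) and Tmem176b (-3.50 ± 0.76), ion channel proteins that dendritic cells and macrophages also express.

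The Foxp3 split left the receptor complex and several activation genes without a call. None of 16 genes of T cell receptor signalling, 15 of activated and memory cells and 10 of the interferon response was called, and Trac had a mean of 828 CPM in Foxp3-positive and 1001 CPM in Foxp3-negative cells. None of 13 cell cycle genes was called, and Mki67 was found in 7 of 18 Foxp3-positive and 36 of 157 Foxp3-negative cells. Hopx, a factor that regulatory and Th1 cells express, was found in 18 of 18 Foxp3-positive and 88 of 157 Foxp3-negative cells. Its log2 difference of 1.65 ± 0.43 missed the threshold (edgeR adjusted p = 0.054).

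F7, the gene floxed in these mice, was found in 4 of 175 CD4 T cells, with 6 molecules or 3.27 CPM, against 22.1 CPM in macrophages. Of these 4 cells 3 were among the 39 rich in myeloid transcripts. Cx3cr1, whose locus carries the Cre, was found in 21 CD4 T cells, 13 of them among those 39, and in 0 of 18 Foxp3-positive cells, a count that permits a share with a molecule of at most 16.7% and sets no limit on cells that express the gene.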

How the data were processed

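Polyadenylated RNA of CD45-selected heart cells was measured in 3 libraries (18 sample tags). The authors deposited molecule counts for every cell and gene, after error correction of the molecular identifiers (RSEC), made with pipeline 2.0b1 (library 1, enhanced beads, intronic reads kept) or 1.10 (libraries 2 and 3), per the file headers. Build GRCm38 comes from the submitters' processing notes and GENCODE M19 from the file headers; no label used here states the aligner or its settings.

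Gating, sums and intervals were computed from these counts in Python 3.11.15 with scipy 1.17.1. Tests used edgeR 4.0.16 in R 4.3.3 (TMM scaling, filterByExpr, robust quasi-likelihood fit, threshold 0.05 after Benjamini-Hochberg adjustment) on counts summed per tag, or per library for Foxp3, without the 11 gating genes and with the 24353 of 29298 genes listed in all 3 libraries. The SE is the log2 difference divided by the root of the F statistic. DESeq2 1.42.0 was an alternative. On counts simulated with the CD4 and CD8 design, 85 of 85 genes changed by 2 on the log2 scale were called, and with the Foxp3 design 45 of 87 by 2 and 72 of 84 by 3. The simulation gave every gene the same fixed spread and no difference between tags or libraries other than depth. These shares therefore need not carry over to the real counts. Doublets were scored with Scrublet in scanpy 1.11.5 (expected rate 6%) and kept; leaving out the highest 2% was an alternative. Named genes were the fixed lists' members and the 10 largest called differences each way with a mean of at least 50 CPM and the same sign in at least 75% of tags or libraries, passing over receptor segments, mitochondrial, ribosomal protein and predicted genes. Igkc was named after its values were seen. Some genes that the rule names are not reported here. Members, lists and promoter motifs were chosen with earlier results of these data known. Each tag marks a biological replicate, per the labels' protocols, but the number of hearts in a tag is not given there. CD4 and CD8 T cells were paired because they came from the same tag. Foxp3-positive and Foxp3-negative cells were paired by library only, and within a library they did not come from the same mix of tags. Intervals and limits from a count of 0 (3 counts) cover counting error only.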

Additional observations from a re-analysis of the deposited data

Results flagged for a closer look

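The CD4 share of CD4 and CD8 T cells was compared among the tags of each library, with Dixon's ratio of the gap to the range. Tag 8 of library 3 had 7.14% CD4 T cells (1 CD4 and 13 CD8 T cells), far below the other 5 tags of that library (ratio 0.843, critical value 0.625). Tag 2 of library 2 had 59.1% (13 CD4 and 9 CD8 T cells), above the other 4 tags (ratio 0.714, critical value 0.71). In all 9 sets of tags were examined, and chance flags about 1 in 20, so 1 of these values may be ordinary.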

How the results depend on the processing

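The CD4 share of all cells was 0.683%. It was 0.274% after thinning every cell to 2000 molecules, 0.495% with Cd4 of at least 2, 1.15% with no C1q limit, 0.211% with no C1q molecule allowed, and 0.53% without the cells rich in myeloid transcripts. Leaving out a library gave 0.496% to 1.1%. The Foxp3-positive share of CD4 T cells was 10.3%, against 5.8% after thinning (4 of 69 cells) and 5.56% with no C1q molecule (3 of 54), and 9% to 12.3% without a library. Between CD4 and CD8 T cells, 40 genes were called. Other settings called 108 with no filter, 23 with no tag block, 93 with sums per library, 10 with at least 10 cells per tag, 13 with Cd4 and Cd8 of at least 2, and 8 after thinning. Without a library the count was 8 to 15. Alone, library 1 gave 0, library 2 gave 0 and library 3 gave 5 (89, 109 and 161 genes at an unadjusted p under 0.05). The DESeq2 test gave 49. Between Foxp3-positive and Foxp3-negative cells, 57 genes were called. Other settings called 108 with no filter, 23 after thinning, 1 without the cells rich in myeloid transcripts, and 0 (56 genes at an unadjusted p under 0.05) by edgeR with sums of 3 or more cells per tag in 2 tags. Sums of 2 or more cells per tag, in 7 tags, called 45 of 794 genes, 13 of them among the 57. Without a library the count was 5 to 322, and the DESeq2 test gave 58. None of 307 log2 values for 20 named genes between CD4 and CD8, nor of 207 for 20 named genes of the Foxp3 split, changed sign. The rule that named these genes asked for the same sign in at least 75% of tags or libraries, so this does not measure stability. The setting with no C1q molecule and at most 1 Lyz2 molecule left too few tags to give a value, as did sums of 5 or more cells per tag for Foxp3. No paired analysis by replicate number was possible because the labels give 1 group. The alternatives on myeloid transcripts and on single libraries were chosen after seeing the data. The Foxp3 split rests on 18 cells, and thinning left 759 genes to test.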
